A study of Mus musculus with 17 samples.

Results

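Saa1, Saa2, Saa3, Saa4, Orm1, Orm2, Orm3, Lcn2, Apcs and Itih3 are 10 genes of secreted plasma and defence proteins that belong to, or are close relatives of, the acute phase proteins of the liver. They were chosen by symbol, and the Ensembl gene IDs that map to these symbols gave all 10 of them among the 46073 genes of the deposited table. Gene expression had been measured in livers of male C57BL/6 mice killed 24 h after an injection of acetaminophen (APAP), a painkiller that injures hepatocytes at high dose, or of saline. APAP at 200 mg/kg was given to 3 mice labelled Nampt +/+ (WT here), 3 labelled Nampt +/- (Het) and 2 labelled Nampt OE (OE, a label that is not spelt out), and 1 further OE mouse received 300 mg/kg. The saline controls were 3 WT, 2 Het and 2 OE mice, with 1 further WT mouse whose saline is labelled IG. Nampt encodes an enzyme that recycles nicotinamide for NAD synthesis, and the title of the series asks about its role in this injury. Most mice were 11 weeks old, and 12 weeks was the age of OE APAP 2, of the OE mouse at the higher dose and of WT saline 1 and WT saline 2. Replicate numbers follow the order of deposition and are only names.

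In the acute phase response, cytokines released at an injury act on hepatocytes through receptors that activate STAT, NF-kappa-B and C/EBP transcription factors, and the liver then changes the set of proteins it secretes into blood. Serum amyloid A proteins travel on high-density lipoprotein and are the classic strongly induced members in mice, together with the pentraxin Apcs (serum amyloid P component), which takes the place in mice that C-reactive protein has in humans. Orosomucoids are drug-binding acid glycoproteins with a lipocalin fold, Lcn2 is a lipocalin that captures bacterial iron siderophores, and Itih3 is a heavy chain that is joined to hyaluronan in the extracellular matrix.

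Values are FPKM (fragments per kilobase of transcript, scaled to the size of the library), and log2 differences were taken on log2(FPKM + 1), which understates changes of low genes. Genes whose mean across the 17 libraries reached 1 FPKM were tested with limma, 11101 in number, all 10 genes described here among them. Orm3 passed that filter through its APAP livers, since its mean was 2.95 FPKM in the 8 APAP livers given 200 mg/kg and 0.897 FPKM in the 7 saline livers. A gene is said to have risen where its Benjamini-Hochberg adjusted p over all 11101 genes was under 0.05. A log2 difference is given with its standard error, an FPKM mean with its SD. Every difference from the fit was adjusted for liver perfusion, which followed the sequencing lane named in the labels (L007 and L008 perfused, L004 to L006 not). Effects of perfusion and of lane therefore cannot be told apart. The lanes of WT saline livers held none but WT saline livers and the IG library, so that the WT response and lane cannot be told apart either.

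OE APAP 1 and OE saline 1 stood apart from their drug groups in these genes, and other genes placed them less clearly. OE APAP 1 had the lowest value of the 9 APAP libraries for 7 of the 10 genes (Saa1, Saa2, Saa3, Orm1, Orm2, Lcn2 and Apcs). It lay above all 7 saline libraries for 1 of the 10, Itih3, and for 17.5% of all genes tested. OE saline 1 was the highest of the 7 saline libraries for 7 genes, namely Saa1, Saa2, Saa3, Orm2, Lcn2, Apcs and Itih3. Shares of all genes for the lowest and the highest place were not computed. Glul, the glutamine synthetase of hepatocytes beside the central vein, where APAP injury begins, stood at 70.5 FPKM in OE APAP 1 and at 102 FPKM in OE saline 1. The other APAP libraries held 15.3 to 56.3 FPKM of Glul and the other saline libraries 313 to 466 FPKM, so that OE APAP 1 lay near the APAP range and OE saline 1 lay between the ranges. Cdkn1a, a cell cycle inhibitor, followed the drug labels, with 1.24 FPKM in OE APAP 1 (1.53 to 19.4 FPKM in the other APAP libraries) and 0.243 FPKM in OE saline 1 (0 to 0.415 FPKM in the other saline libraries). Cyp2e1 and Mt2 did not. Cyp2e1 stood at 734 FPKM in OE saline 1, inside the APAP range of 122 to 1016 FPKM, and at 1662 to 3831 FPKM in the other saline libraries. Mt2 stood at 36.1 FPKM in OE saline 1 and at 10.3 FPKM in OE APAP 1. Nampt itself did not follow the Het label, with 15.4, 11.3 and 15.2 FPKM in Het APAP livers against 12.0, 10.9 and 16.7 FPKM in WT APAP livers, and 26.0 and 23.0 FPKM in Het saline livers against 18.0, 15.3 and 18.0 FPKM in WT saline livers. It was higher in OE than in the replicated WT livers of the same drug group. The OE APAP livers held 36.0 and 18.5 FPKM and the OE saline livers 22.4 and 27.2 FPKM. The WT saline liver labelled IG, at 23.4 FPKM, and both Het saline livers were above OE saline 1. WT, Het and OE stand for libraries labelled so, and values without OE APAP 1 or OE saline 1 are given beside some of the averaged and OE responses.

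Averaged over the 3 genotype labels, APAP raised 8 of the 10 genes and lowered 0 (8 APAP and 7 saline livers), where 9.79% of all genes tested were higher. At an unadjusted p under 0.05 there were 9 of the 10, against 35.4% of all genes. The rises ran over a wide range, with Saa2, Lcn2, Saa1 and Orm2 at 4.14 to 6.83 on the log2 scale, Saa3 and Apcs near 3, and Orm1 and Itih3 under 2. The 2 genes that did not pass were Saa4, a serum amyloid A of the same chromosome 7 cluster that is known as constitutive, and Orm3. The median log2 difference of the 10 genes was 3.15, beside -0.02 over all genes tested. Together the 10 genes held 1.59 ± 1.16% of the summed FPKM of an APAP liver and 0.190 ± 0.0499% of that of a saline liver (SD, n = 8 and 7), which differed by 1.36 percentage points averaged over genotypes (exact permutation test within genotypes, two-sided p = 0.0183). The difference was 1.69 points without OE APAP 1, 1.38 points without OE saline 1 and 1.04 points without OE APAP 2. The last was the smallest with 1 library left out. The share ran from 0.203% in OE APAP 1 to 3.16% in Het APAP 2, against 0.136% to 0.263% over the saline livers. In bulk tissue, fewer cells of a type and less RNA per cell cannot be told apart.

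**Figure D1:**
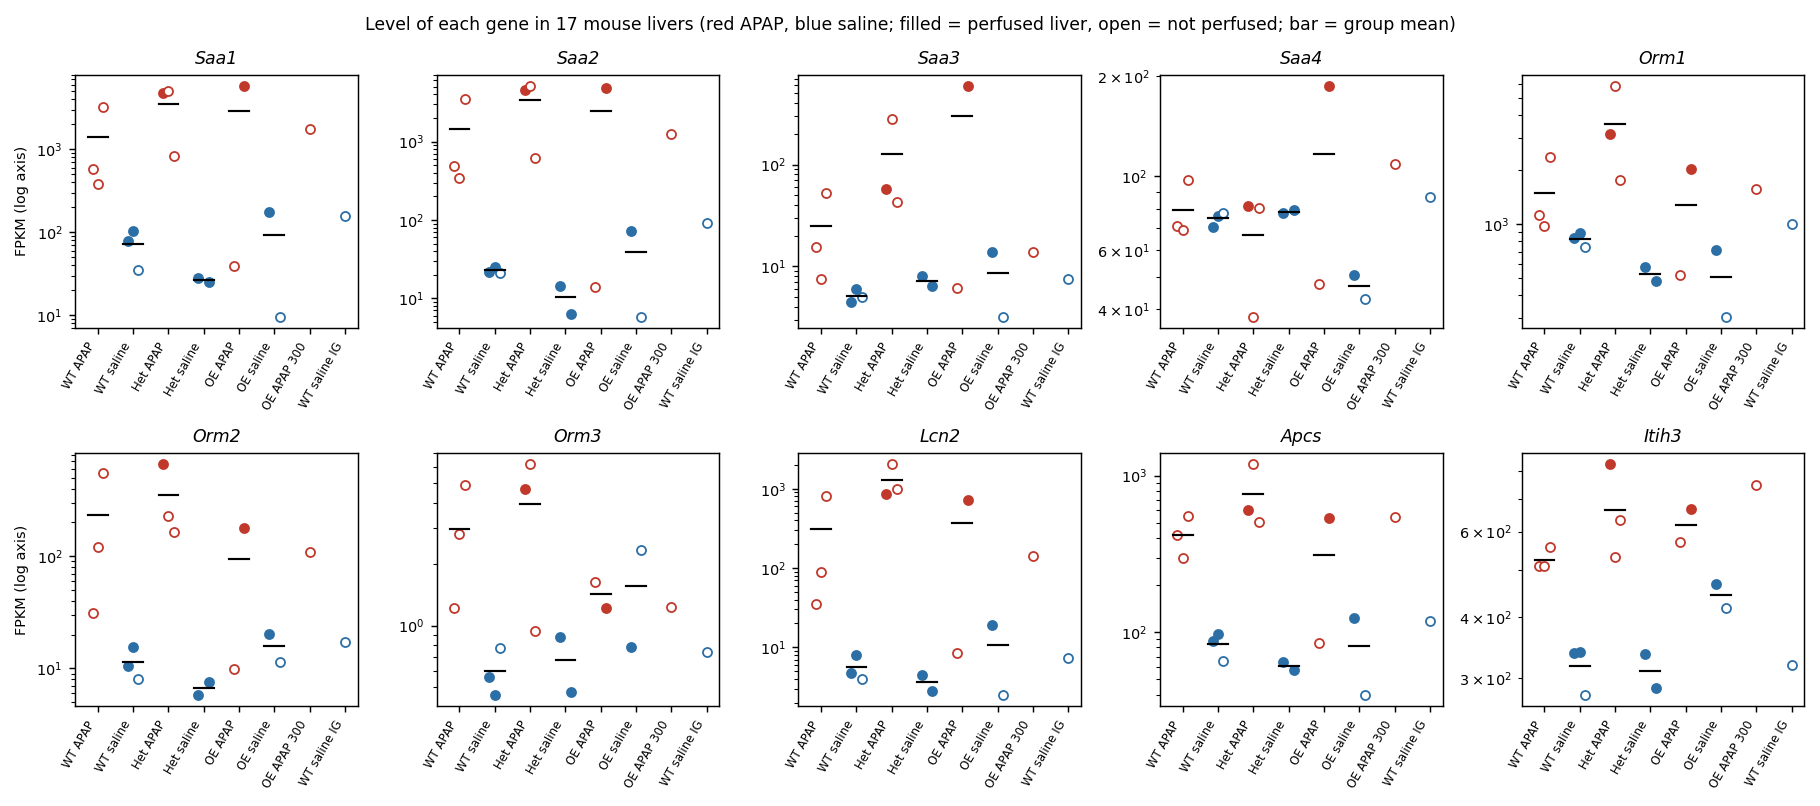
FPKM on a log axis for each of the 10 genes in all 17 libraries, by group, with APAP in red, saline in blue, perfused livers filled and the black bar at the group mean. Saa2 and Lcn2 span 872-fold and 812-fold between libraries, Saa4 and Itih3 4.91-fold and 2.98-fold, and the lower of the red OE APAP points (OE APAP 1) sits among the blue ones in most panels.

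The serum amyloid A genes lie within 42316 bp of chromosome 7 (46711998 to 46754313, GRCm38), with Saa1 and Saa2 facing away from each other. The stretches upstream of Saa1 and Saa2 are shown because each of these genes had the other as its nearest profile among all genes searched: over the 250 bases before each start they were 94.8% identical, and the next most similar pair of different families, Saa1 and Orm3, reached 54.9%. Capitals mark matches to TTNNGNAA, a loose form of the C/EBP motif, on either strand. The sequences are RefSeq's on GRCm38.p6, for Saa1 chr7:46742981-46743230 (minus strand, ENSMUSG00000074115) and for Saa2 chr7:46751583-46751789 (plus strand, ENSMUSG00000057465). The last 43 bases before the Saa2 start are left out, since GENCODE places an exon there.
Saa1: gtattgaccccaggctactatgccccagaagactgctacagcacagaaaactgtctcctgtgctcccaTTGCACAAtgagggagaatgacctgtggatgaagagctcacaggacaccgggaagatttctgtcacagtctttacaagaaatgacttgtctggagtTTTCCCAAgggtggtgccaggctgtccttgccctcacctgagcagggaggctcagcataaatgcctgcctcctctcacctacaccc
Saa2: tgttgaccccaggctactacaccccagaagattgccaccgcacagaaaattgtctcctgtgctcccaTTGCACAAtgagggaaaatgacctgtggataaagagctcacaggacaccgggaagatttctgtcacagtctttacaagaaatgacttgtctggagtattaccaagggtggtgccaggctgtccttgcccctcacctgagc
TTNNGNAA was found upstream of 7 of the 9 genes with an entry, and of 36.8% of all 32851 promoters searched. A loose NF-kappa-B motif (GGG, any 3 bases, TTCC) was found upstream of 0 of the 9 (4.65% of all promoters), and TTCNNNGAA, a STAT motif, upstream of 1, Apcs (7.02%). Part of the stretch searched lies in annotated exons for Lcn2 (197 of 250 bases), Itih3 (173), Saa2 (43) and Saa3 (24). Both strands were searched, and a match is a description of letters and not a site.

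The 3 WT APAP livers held 579, 380.4 and 3256 FPKM of Saa1, and the 3 WT saline livers 78.0, 105 and 35.5 FPKM. In Het livers it stood at 4769, 5118 and 837 FPKM after APAP and at 27.8 and 25.1 FPKM after saline. The OE APAP livers held 39.5 and 5808 FPKM and the OE saline livers 173 and 9.59 FPKM. Every WT and Het APAP liver was thus above every saline liver, whereas OE APAP 1 fell inside the saline range and OE APAP 2 had the highest Saa1 level of all libraries. The averaged rise was 6.01 ± 0.94 on the log2 scale (adjusted p = 0.00285), 4.62 without adjustment for perfusion, 6.38 without OE APAP 1 and 4.67 without OE APAP 2. Saa2, the twin gene, ran from 13.9 to 5095 FPKM over the 8 APAP livers (median 2070) and from 5.84 to 72.6 FPKM over the 7 saline livers (median 21.3), with the same library, OE APAP 1, alone inside the saline range. Its averaged rise was 6.83 ± 1.19 (adjusted p = 0.00484), and 7.32 without OE APAP 1. Of the stretches of 100 bases in Saa1 transcripts, 8.96% also occur in Saa2, and 8.63% the other way, so reads there could be assigned to either gene.

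Saa3, the serum amyloid A that macrophages and fat also make in mice, was lower in level and far more uneven. It stood at 15.7, 7.54 and 52.3 FPKM in WT APAP livers, against 4.46, 5.95 and 5.04 FPKM in WT saline livers. Het livers held 58.2, 281 and 43.4 FPKM after APAP and 7.98 and 6.36 FPKM after saline, and OE livers 6.08 and 591 FPKM after APAP and 13.8 and 3.21 FPKM after saline. WT APAP 2 and OE APAP 1 lay inside the saline range, and OE APAP 2 was the highest, followed by Het APAP 2. The averaged rise of 3.40 ± 1.02 (adjusted p = 0.0426) was close to the threshold. It no longer passed when any of 11 of the 15 libraries was left out in turn (the exceptions were WT APAP 2, Het APAP 1, Het APAP 2 and OE APAP 1), and it was 1.77 without OE APAP 2 (adjusted p = 0.226). Without adjustment for perfusion it was 2.73 (adjusted p = 0.0520).

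Saa4, the constitutive apolipoprotein of the family, varied less than Saa1, Saa2 and Saa3, with 4.91-fold between its highest and lowest library. It stood at 71.1, 69.2 and 97.3 FPKM in WT APAP livers and at 70.4, 76.1 and 77.7 FPKM in WT saline livers. Het livers held 81.4, 37.9 and 80.5 FPKM after APAP and 77.3 and 79.0 FPKM after saline, and OE livers 47.5 and 186 FPKM after APAP and 50.7 and 42.8 FPKM after saline. The APAP and saline groups overlapped in every genotype. Het APAP 2 had the lowest Saa4 level of all libraries while its Saa1 level was among the 3 highest, and OE APAP 2 was the highest in both. The averaged difference was 0.52 ± 0.26 (95% interval -0.05 to 1.09, adjusted p = 0.178). It passed without OE APAP 1 (0.64, adjusted p = 0.0293) and was 0.072 without OE APAP 2 (adjusted p = 0.890).

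The orosomucoid genes lie within 21319 bp of chromosome 4 (63344560 to 63365878, GRCm38), all on the plus strand in the order Orm1, Orm3, Orm2. Upstream stretches of Orm2 and Orm3 are shown because they were 85.9% identical over 250 bases while the levels of the genes differed widely. They are RefSeq's on GRCm38.p6 at chr4:63362199-63362448 and chr4:63355908-63356157, both on the plus strand, with TTNNGNAA matches in capitals.
Orm2: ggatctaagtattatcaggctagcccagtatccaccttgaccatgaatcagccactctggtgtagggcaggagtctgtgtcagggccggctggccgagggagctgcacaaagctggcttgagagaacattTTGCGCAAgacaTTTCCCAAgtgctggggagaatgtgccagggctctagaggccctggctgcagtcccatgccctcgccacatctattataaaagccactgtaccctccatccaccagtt
Orm3: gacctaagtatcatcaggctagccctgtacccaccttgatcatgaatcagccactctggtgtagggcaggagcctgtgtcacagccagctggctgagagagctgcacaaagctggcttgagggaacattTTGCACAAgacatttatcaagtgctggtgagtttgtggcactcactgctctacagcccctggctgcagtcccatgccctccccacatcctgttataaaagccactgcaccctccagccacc
Orm2 has 2 matches and Orm3 has 1, and both also hold TATAAA, found in 12.4% of all promoters searched.

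Orm1 was the most abundant of the 3 in every library. It stood at 1113, 976 and 2341 FPKM in WT APAP livers, against 834, 887 and 745 FPKM in WT saline livers. Het livers held 3161, 5822 and 1755 FPKM after APAP and 573 and 482 FPKM after saline, and OE livers 521 and 2010.0 FPKM after APAP and 712 and 304 FPKM after saline. All APAP livers other than OE APAP 1 were above the 7 replicated saline livers, by a small margin in WT and a wide one in Het. The single IG saline liver, at 998 FPKM, was above WT APAP 2. The averaged rise was 1.81 ± 0.36 on the log2 scale (adjusted p = 0.00477), and 1.41 without OE APAP 2, where it did not pass (adjusted p = 0.0563).

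Orm2 started far lower and rose more. Its levels were 31.2, 122 and 553 FPKM in WT APAP livers against 10.6, 15.6 and 8.08 FPKM in WT saline livers. They were 658, 230.4 and 164 FPKM in Het APAP livers against 5.81 and 7.63 FPKM in Het saline livers, and 9.97 and 178 FPKM in OE APAP livers against 20.4 and 11.3 FPKM in OE saline livers. OE APAP 1 again lay inside the saline range, and the other 7 APAP livers were above it. The averaged rise was 4.14 ± 0.71 (adjusted p = 0.00426). Of the 100-base stretches of Orm1 and of Orm2, 6.95% are shared between the genes, and Orm3 shares none with either.

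Orm3 was near the limit of the table, at 0.939 to 6.18 FPKM over the 8 APAP livers (median 2.22) and 0.457 to 2.35 FPKM over the 7 saline livers (median 0.779). The groups overlapped through OE saline 2, the highest saline liver, and Het APAP 3 was the lowest APAP liver. Its averaged difference was 0.79 ± 0.35 (95% interval 0.01 to 1.57, adjusted p = 0.136). It passed without Het APAP 3 (0.88, adjusted p = 0.0166) and without adjustment for perfusion (0.85, adjusted p = 0.0484).

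Lcn2 had the widest span after Saa2, with 812-fold between its highest and lowest library. It stood at 34.7, 88.4 and 799.8 FPKM in WT APAP livers, against 4.75, 8.0 and 3.99 FPKM in WT saline livers. The Het APAP livers held 849.7, 2034 and 1002 FPKM and the Het saline livers 4.53 and 2.79 FPKM, while OE APAP livers held 8.57 and 725 FPKM and OE saline livers 19.1 and 2.50 FPKM. Lcn2 was the only one of the 10 genes for which every Het APAP liver was above every WT APAP liver, a separation found in 8.96% of all genes tested. The averaged rise was 6.06 ± 1.07 (adjusted p = 0.00508), 5.26 without adjustment for perfusion, 6.47 without OE APAP 1 and 4.59 without OE APAP 2. Neutrophils also carry Lcn2, and the 14 neutrophil markers listed summed to 6.46 to 473 FPKM in APAP livers (median 79.1) and 2.09 to 10.02 FPKM in saline livers (median 2.75). S100a8, S100a9 and Csf3r rose (3 of the 4 markers tested), and the neutrophil surface antigen Ly6g and the granule genes Mpo, Elane, Ltf, Camp and Ngp were under 1 FPKM in every APAP and saline liver. Monocyte and infiltrating macrophage markers rose in 8 of 9, summing to 111 to 429 FPKM against 102 to 169 FPKM, and 0 of 10 Kupffer cell markers passed. Of 11 hepatocyte markers tested 5 fell, with sums of 11829.5 to 27007 FPKM in APAP livers and 28379 to 36793 FPKM in saline livers, Alb being listed at 0 throughout. The part of these cell types in the results was not tested.

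Apcs and Itih3 rose with the smallest adjusted p-values of the 10 genes. Apcs stood at 417, 296 and 549 FPKM in WT APAP livers, against 87.6, 98.2 and 65.1 FPKM in WT saline livers. In Het livers it held 601, 1179.7 and 505 FPKM after APAP and 65.0 and 57.7 FPKM after saline, and in OE livers 85.9 and 538 FPKM after APAP and 124 and 39.8 FPKM after saline. OE APAP 1 was the single APAP liver inside the saline range. Its averaged rise of 2.89 ± 0.38 had an adjusted p of 7.66e-04. Itih3 rose by 0.90 ± 0.12, the smallest rise of the 8 (adjusted p = 6.74e-04). Its levels ran from 509 to 824 FPKM over the 8 APAP livers (median 563) and from 277 to 468 FPKM over the 7 saline livers (median 338), with no overlap.

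Itih3 was the only one of the 10 genes whose 8 APAP livers all lay above the 7 saline livers, against 1.31% of all genes tested. Without OE APAP 1, this held for 7 of the 10 (all but Saa3, Saa4 and Orm3), against 3.53% of all genes tested. Without OE APAP 2, 6 genes passed in the averaged fit, Saa3 and Orm1 having dropped out, against 3.01% of all genes higher in that fit. Without OE APAP 1 there were 9, against 10.5%. The count was 8 (6.18% of all genes) with OE APAP 1 and OE saline 2 left out together and 9 (12.6%) with OE APAP 1 and OE saline 1 left out, both chosen after seeing the data. The fitted difference between perfused and other livers was 3.12 for Saa1 (adjusted p = 0.210), 2.95 for Saa2, 1.82 for Lcn2 and 1.71 for Orm2. It passed for 0 of the 10 genes by limma, 4 of which had an unadjusted p under 0.05, against 16.5% of all genes (0.054% called). Only the WT saline, Het APAP, OE APAP and OE saline groups held livers of both states. The adjustment thus rests in part on OE APAP 1 and OE saline 1.

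**Figure D2:**
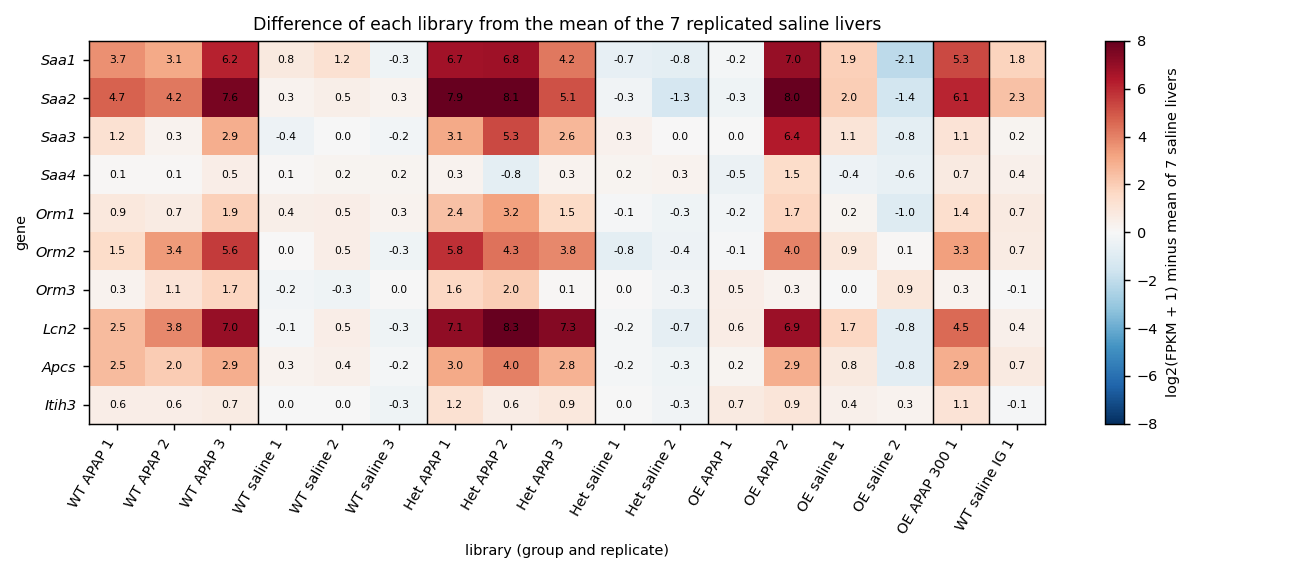
Difference in log2(FPKM + 1) of each library from the mean of the 7 replicated saline livers, with genes in rows and libraries in columns (red higher, blue lower, vertical lines between groups). The WT and Het APAP columns are red for Saa1, Saa2, Orm2, Lcn2 and Apcs, and the OE APAP 1 column is pale throughout, from -0.47 for Saa4 to 0.72 for Itih3. The OE saline 1 column is pale red except for Saa4 (-0.38) and Orm3 (-0.03).

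Within genotype labels the response differed in how many genes passed. In WT livers 3 genes rose (Orm2 by 4.57 ± 1.10, Apcs by 2.93 ± 0.58 and Itih3 by 0.93 ± 0.19, adjusted p = 0.0471, 0.0184 and 0.0166), where 1.95% of all genes tested were higher and 3.55% lower. At an unadjusted p under 0.05 there were 7 (22.9% of all genes). All but Saa4 of the 10 genes were nevertheless higher in each WT APAP liver than in each of the 3 replicated WT saline livers, which held for 16.4% of all genes tested. Saa1 had 5.82 ± 1.45 and Saa2 7.11 ± 1.82 (adjusted p = 0.0519 and 0.0569), and 3.74 and 5.15 without adjustment for perfusion. No WT APAP liver was perfused. WT APAP 3 stood apart from WT APAP 1 and WT APAP 2 at Saa1, Saa2, Orm2 and Lcn2. The WT calls changed with the libraries used, and so did the size of the larger differences. With 1 library left out Saa2 ran from 6.08 to 9.18, Saa1 from 4.89 to 7.14 and Lcn2 from 4.36 to 6.60. Apcs ran from 2.62 to 3.28 and Itih3 from 0.88 to 0.96. Orm2 passed in 1 of the 15 fits that left out a library, the one without WT APAP 1, with differences of 3.52 to 5.58 over the 15. Apcs was lost without WT APAP 3 (2.71, adjusted p = 0.0610), WT saline 1 (2.84, adjusted p = 0.0522) or WT saline 3 (3.25, adjusted p = 0.0654), and Itih3 without WT saline 1 or WT saline 3 (0.93 and 0.95, adjusted p = 0.0535 and 0.0790). Saa1 passed without Het APAP 1, Het APAP 2 or either OE APAP library (5.08 to 6.33), and Saa2 without Het APAP 2 or either OE APAP library (6.13 to 7.43). Within non-perfused WT livers, taking the IG liver as a saline liver, the unadjusted differences were 3.57 for Saa1, 4.41 for Lcn2, 3.33 for Orm2, 2.2 for Apcs and 0.82 for Itih3 (3 against 2 livers).

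In Het livers 7 genes rose, all but Saa3, Saa4 and Orm3, where 9.04% of all genes tested were higher and 13.1% lower. At an unadjusted p under 0.05 there were 8 (35.8% of all genes). Saa2 had the largest difference (9.80 ± 1.99, adjusted p = 0.0105), ahead of Lcn2 (9.25 ± 1.79), Saa1 (8.72 ± 1.59) and Orm2 (6.39 ± 1.2). Apcs rose by 4.15 ± 0.63, Orm1 by 3.09 ± 0.61 and Itih3 by 1.28 ± 0.20. Without adjustment for perfusion the differences were 7.83 for Saa2, 8.04 for Lcn2 and 6.64 for Saa1, and within lane L008 (1 against 2 livers) they were 8.74, 7.54 and 7.44. With lane in place of perfusion in the fit, Saa2, Lcn2 and Orm2 did not pass (adjusted p = 0.0511, 0.0603 and 0.0612), and the 4 genes that did were Saa1, Orm1, Apcs and Itih3, against 3.04% of all genes higher. As in WT, all but Saa4 were separated between the drug groups, which held for 25.4% of all genes tested with these group sizes. Saa2 was lost without Het saline 1 or 2 (10.34 and 9.26, adjusted p = 0.0501 and 0.0650) and Lcn2 without Het saline 2 (8.97, adjusted p = 0.0550), while Orm3 passed without Het APAP 3 (1.73, adjusted p = 0.0126).

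In OE livers 0 of the 10 genes passed, and 0% of all genes tested did so by limma (at an unadjusted p under 0.05, 3 of the 10 genes and 4.8% of all genes). The differences were large but so were their errors, such as 3.50 ± 1.57 for Saa1 and 3.31 ± 1.77 for Lcn2. Without OE APAP 1 these were 6.07 and 6.13, without OE APAP 2 0.92 and 0.49, and without OE saline 1 4.08 and 3.76, and 0 of the 10 genes passed in any of these fits by limma. The 2 OE livers of each drug group disagreed with each other: in lane L008 the difference was 5.06 for Saa1 and 5.17 for Lcn2 (OE APAP 2 against OE saline 1), and in lane L004 it was 1.93 and 1.45 (OE APAP 1 against OE saline 2). Itih3 alone was separated between the OE drug groups, which held for 10.8% of all genes tested, and its difference was similar in both lanes at 0.51 and 0.44.

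**Figure D3:**
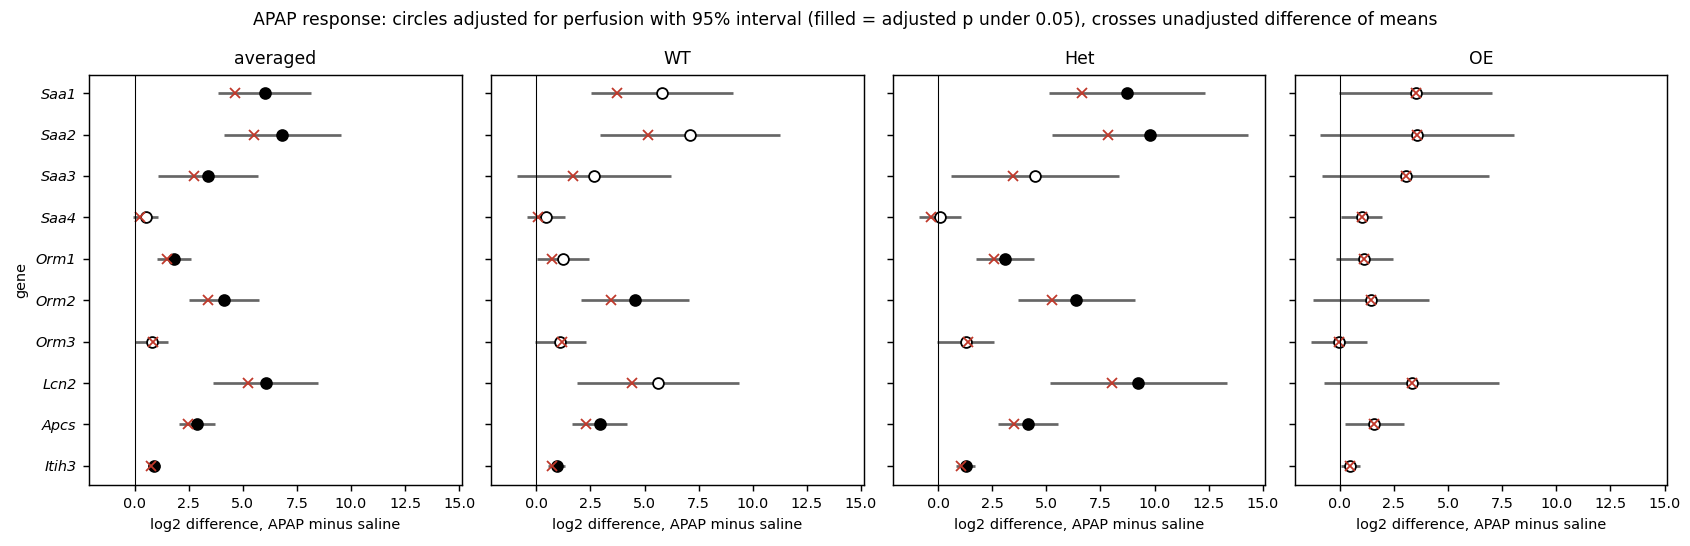
Log2 difference between APAP and saline livers for each gene, averaged and within WT, Het and OE, as perfusion-adjusted estimates (circles, filled where the adjusted p was under 0.05, with 95% intervals) and unadjusted differences of group means (red crosses). Most filled circles are in the averaged and Het panels, the crosses lie left of the circles for Saa1, Saa2 and Lcn2 outside OE, and 0 circles are filled in OE.

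The genotype differences themselves did not pass for any of the 10 genes in 8 comparisons by limma, and their intervals were wide. Het minus WT under APAP was 2.53 ± 1.5 for Lcn2 (95% interval -0.88 to 5.94) and 0.57 ± 1.33 for Saa1 (-2.43 to 3.57). None of the 10 genes had an unadjusted p under 0.05 there, against 19.1% of all genes, and 0.00901% and 0.045% of all genes were called higher and lower. OE minus WT under APAP had 1 of the 10 at an unadjusted p under 0.05, Apcs at -1.39 ± 0.61 (17.2% of all genes, and 0.00901% called higher). OE minus Het under APAP had 4, namely Apcs (-1.88 ± 0.57, adjusted p = 0.0528), Orm1 (-1.76 ± 0.55, adjusted p = 0.0544), Orm2 (-3.01 ± 1.09) and Lcn2 (-4.15 ± 1.63), where 29.9% of all genes had such a p, 8.72% were called higher and 4.9% lower. Without OE APAP 2, 5 of the 10 genes were lower in that comparison (5.15% of all genes). The count was 2 without WT APAP 3 (6.18%) or Het APAP 1 (6.24%), 1 without WT APAP 1 (5.07%) or Het APAP 3 (1.87%), and 0 without OE APAP 1 (0.00901%). Within lane L008 the single Het APAP liver and the single OE APAP liver were close for Saa1 (-0.28 Het minus OE), Saa2 (-0.09), Lcn2 (0.23) and Apcs (0.16), with Itih3 at 0.31 and Orm1 at 0.65. They were further apart for Saa3 (-3.32), Orm2 (1.88), Orm3 (1.36) and Saa4 (-1.18).

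Under saline, 5 of the 10 genes (Saa1, Saa2, Orm1, Orm2 and Apcs) were lower in both Het livers than in all 3 WT livers, a separation that held for 19.1% of all genes tested. The fitted Het minus WT differences were -2.33 ± 1.47 for Saa1 and -0.89 ± 0.56 for Orm1, and 0 of the 10 had an unadjusted p under 0.05 (11.8% of all genes, with 0.018% called in each direction). OE minus WT under saline had 1 such gene, Itih3 at 0.54 ± 0.19 (5.95% of all genes, with 0.00901% called higher and 0.027% lower). Differences of the APAP response between genotypes were likewise under the threshold. Het minus WT was 3.61 ± 2.2 for Lcn2 (95% interval -1.33 to 8.55) and 1.86 ± 0.74 for Orm1, the 1 gene with an unadjusted p under 0.05 (8.25% of all genes, with 0% called). OE minus WT had 0 such genes (5.98% of all genes, with 0% called), with -2.32 ± 2.14 for Saa1 (-7.16 to 2.51). OE minus Het had 6 of the 10 (18.3% of all genes, with 0.018% called higher), with -5.22 ± 2.23 for Saa1 and -4.95 ± 1.69 for Orm2 (adjusted p = 0.260 and 0.176), and 1 of the 10 genes was lower there without Het APAP 1 (1.1% of all genes) or without OE APAP 2 (0.883%). These comparisons share livers with each other and with the responses above.

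Within families the proportion of one gene to another changed with the drug. The ranges and medians given are plain ratios, which do not depend on the scaling of a library. The log2 differences were taken with 1 FPKM added to both genes, so for genes of low level they do depend on it. In all, 5 ratios were tested by exact permutation within genotypes (two-sided, 8 APAP and 7 saline livers, p adjusted over the 5). Saa2 reached 0.351 to 1.08 of the Saa1 level in APAP livers (median 0.871) and 0.241 to 0.609 in saline livers (median 0.419), a log2 difference of 0.90 (permutation adjusted p = 0.0198). That difference was 1.39 within perfused livers (2 against 5) and 0.31 within non-perfused livers (6 against 2). Saa4 was above Saa1 in 4 of the 7 saline livers, with ratios of 0.293 to 4.46 (median 2.19), and stood at 0.00741 to 1.203 (median 0.0641) in APAP livers. The log2 difference was -4.37 (permutation adjusted p = 0.0167), and -5.55 and -5.02 within perfused and non-perfused livers.

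Saa3 relative to Saa1 ran from 0.0122 to 0.154 in APAP livers (median 0.0394) and from 0.0569 to 0.335 in saline livers (median 0.142), so Saa3 fell behind Saa1 by a log2 difference of -1.89 (permutation adjusted p = 0.0167). Orm2 gained on Orm1, with ratios of 0.0191 to 0.236 in APAP livers (median 0.0908) and 0.0101 to 0.0372 in saline livers (median 0.0158), a log2 difference of 1.89 (permutation adjusted p = 0.0198). Orm3 over Orm1 did not pass (-0.64, permutation adjusted p = 0.263). Its median plain ratio went the other way, at 0.00129 in APAP livers and 0.00105 in saline livers, Orm3 being near the 1 FPKM added. The groups overlapped in all 5 ratios, and OE APAP 1 lay inside the saline range in all 5. OE APAP 2 also lay inside it for Saa3 over Saa1 (0.102), WT APAP 1 for Orm2 over Orm1 (0.0280), and every APAP liver for Orm3 over Orm1. All 4 calls were lost without OE APAP 2 (permutation adjusted p = 0.0556 for 3 of them and 0.0771 for Saa2 over Saa1), and Saa2 over Saa1 also without OE saline 1 (0.79, permutation adjusted p = 0.0667).

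**Figure D4:**
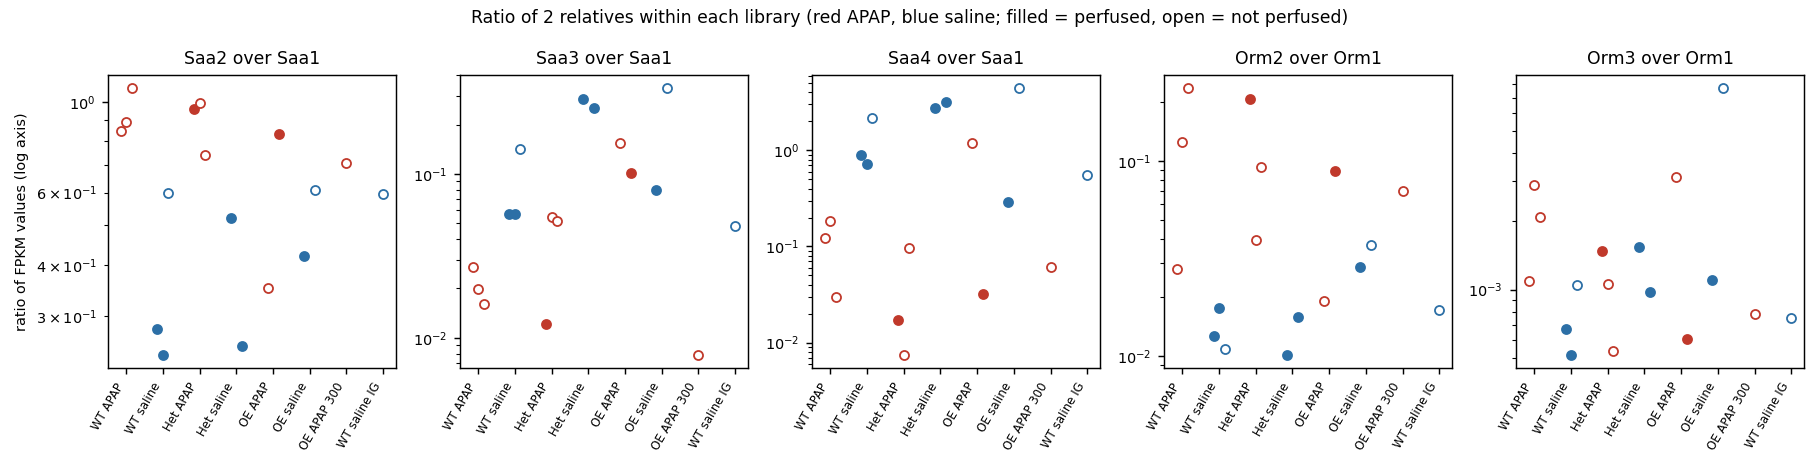
FPKM of 1 gene divided by that of a relative in the same library, on log axes, by group (APAP red, saline blue, perfused filled). Saa2 over Saa1 and Orm2 over Orm1 are higher in most red points, and Saa3 and Saa4 over Saa1 are lower. OE APAP 1 lies within the blue range in those panels, as do OE APAP 2 for Saa3 over Saa1 and WT APAP 1 for Orm2 over Orm1.

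Other genes of the acute phase response gave the setting for these changes, on the averaged response, where 9.79% of all genes were higher and 13.3% lower. Of 19 measured positive acute phase genes (24 listed) 14 rose and 0 fell, with a median of 1.38. Among them were Fgl1, a hepatocyte-secreted fibrinogen-like protein (1.93 ± 0.23, adjusted p = 4.09e-04), Serpina10, a protease inhibitor (1.08 ± 0.15), Fgg, a fibrinogen chain, and Mt1, a metallothionein. Of 8 measured negative acute phase genes 3 fell, namely the retinol carrier Rbp4 (-1.17 ± 0.22, adjusted p = 0.00312), the corticosteroid carrier Serpina6 (-1.67 ± 0.46) and the coagulation factor F12 (-0.35 ± 0.12). Crp, the human counterpart in role of mouse Apcs, had 0.08 ± 0.13 (adjusted p = 0.723).

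Cytokines that act on hepatocytes, their receptors and the factors they activate were read from 2 lists. Of 11 measured cytokines and receptors 5 rose and 2 fell. The oncostatin M receptor Osmr (1.16 ± 0.13, adjusted p = 2.35e-04), the interleukin receptor Il1r1 (1.67 ± 0.26) and the shared signalling chain Il6st (0.65 ± 0.12) rose, and the accessory receptor Il1rap fell by 1.04 ± 0.16. Il6 stood at 0 to 0.585 FPKM in APAP livers and 0 to 0.348 FPKM in saline livers and was not tested. Of 18 transcription factors and feedback genes 6 rose and 3 fell. Stat3 rose by 0.94 ± 0.13 (adjusted p = 7.96e-04) and its feedback inhibitor Socs3 by 2.18 ± 0.42, while the hepatocyte factors Creb3l3 and Cebpa fell by 0.75 ± 0.11 and 0.92 ± 0.16. The inducible C/EBP factors Cebpb and Cebpd had 0.45 ± 0.28 and 0.67 ± 0.36 (adjusted p = 0.284 and 0.216).

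Of 15 measured binding partners and receptors 3 rose and 4 fell, all 4 at the smallest p-values of the list. They were the phospholipid transfer protein Pltp (-0.77 ± 0.11, adjusted p = 0.00103), Apoa2, an apolipoprotein of the lipoprotein that serum amyloid A joins (-0.94 ± 0.19), and Asgr1 and Asgr2, the subunits of the receptor that clears desialylated glycoproteins such as orosomucoid (-0.64 ± 0.14 and -0.80 ± 0.15). The Lcn2 receptors Slc22a17 and Lrp2 were not among the genes tested. Of 9 measured relatives, Itih4 (1.005 ± 0.17) and Ambp, the bikunin precursor (0.57 ± 0.17), rose and Rbp4 fell. The other heavy chains Itih1 and Itih2 had -0.10 ± 0.16 and 0.06 ± 0.13 (adjusted p = 0.698 and 0.771).

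Profiles over the 17 libraries were compared by the root mean square difference of log2(FPKM + 1) after centring each gene, among 10090 genes with a symbol. Saa1 and Saa2 were each other's nearest gene at 0.66, small beside their own SDs of 2.92 and 3.41. Lcn2 was nearest to Mt2 (0.78), a metallothionein, followed by Saa2 (1.07) and Saa1 (1.09), and Saa3 to Il1rn (0.94), Slpi (1.06) and S100a8 (1.09). Apcs was nearest to Scara5 (0.58), Fgl1 (0.61) and Orm1 (0.64). The nearest genes to Orm1 were Tceal9, Sec61g and Tagln at 0.42 to 0.48, those to Orm2 were Mmp12, Crybb3 and Apcs at 0.93 to 1.03. Saa4 (Fas, Tapbp and Herc6 at 0.35 to 0.36) and Orm3 (Caps2, Cks1b and Mid1 at 0.36 to 0.39) had no other of the 10 genes among their 3 nearest. All libraries share these groups and lanes, so likeness here describes the 17 libraries and no more.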

How the data were processed

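RNA of 17 mouse livers was sequenced in paired ends. Per the submitters' processing notes, bcl2fastq 2.17.1.14, TopHat2 2.0.9, Cufflinks 2.2.1, Cuffdiff and the build GRCm38.p5 were used. The authors deposited 1 table of gene values for the 17 libraries, taken here to be FPKM. The unit was inferred from the tools and values, with summed FPKM of 466883 to 916006 per library. Read depth is unknown, so no counting error can be given.

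Differences were fitted with limma 3.58.1 (R 4.3.3, statmod 1.5.0; trend and robust) on log2(FPKM + 1) for 8 label groups with a perfusion term, which left 8 residual degrees of freedom, with Benjamini-Hochberg adjustment over the 11101 genes whose mean reached 1 FPKM. After the data were seen, 96 genes in runs listed at 0 in some libraries were left out, 89 by that rule and 7 as neighbours; none is described here. Shares and ratios were tested by exact permutation within genotypes (scipy 1.17.1, python 3.11.15), and promoters aligned with biopython 1.88. Gene positions are GENCODE M21's on GRCm38 and promoters RefSeq's on GRCm38.p6. On simulated data the fit recovered 42 of 47 genes changed by 1 on the log2 scale and 54 of 55 changed by 2 in the averaged response, with 8 false calls among 202. The simulated rise was the same in every APAP library and was given only to genes of higher saline level. These rates therefore do not carry over to data with a library such as OE APAP 1, or to genes as low in saline livers as Lcn2, Saa3 and Orm3.

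The 10 genes, the lists and the tests were chosen with earlier results of these data known. All 10 are named, from each list up to 4 genes with the smallest p among those that passed, with others where a role needs them, and for each gene the 3 nearest profiles, except that those of Itih3 are not reported here. Replicates are numbered in order of deposition, and since nothing says more about their source, p-values measure only how these samples vary, which may be technical. Alternatives changed the pseudocount, filter, scaling, covariates, weights and libraries.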

Additional observations from a re-analysis of the deposited data

Results flagged for a closer look

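The single OE liver given 300 mg/kg APAP and the single WT saline liver labelled IG have no replicate. They stand in no tested difference above, and values in them beyond the range of the 7 replicated saline livers are given here without a test. In the 300 mg/kg liver 9 of the 10 genes were above all 7 saline livers, as were 20.8% of all genes tested. Saa1 stood at 1782 FPKM, Saa2 at 1262 FPKM, Saa3 at 13.95 FPKM and Saa4 at 109 FPKM. Orm1 stood at 1569 FPKM, Orm2 at 109.6 FPKM, Lcn2 at 143 FPKM, Apcs at 546 FPKM and Itih3 at 749 FPKM. The exception was Orm3, at 1.23 FPKM against 2.35 FPKM in the highest saline liver. Saa3 was above the highest saline liver (13.8 FPKM) by a small margin. In the IG liver, Saa2 (92.5 FPKM), Saa4 (86.8 FPKM) and Orm1 (998 FPKM) were above all 7 replicated saline livers (11.1% of all genes tested were), whose highest values were 72.6, 79.0 and 887 FPKM.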

How the results depend on the processing

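The averaged count of 8 genes that rose ran from 7 to 9 under other settings and from 6 to 9 with 1 library left out. The WT count of 3 was 1 without a filter (0.23% of all genes higher) or with FPKM rescaled to an equal total (1.49%). It was 2 with no perfusion term (3.97%) or with 10 FPKM added (1.85%). Quantile normalisation gave 4 (2.12%), as did pooling the single libraries into their groups (3.41%). A mean of at least 5 FPKM gave 5 (2.42%), as did array weights (2.94%), and no trend and no robust step gave 6 (2.24%). With 1 library left out the WT count was 0 to 4 (0 without WT saline 1 or WT saline 3, and 1 without WT APAP 3). The Het count of 7 was 4 (Saa1, Orm1, Apcs and Itih3) with lane in place of perfusion and 5 to 8 with 1 library left out. For OE minus Het under APAP the count was 0. There 2 genes were lower with at least 5 FPKM (4.03% of all genes lower), with quantile normalisation (5.5%) or with rescaling (11.5%). With no trend (4.98%) or with array weights (5.75%) 1 gene was lower. Counts with 1 library left out are given above. For the OE minus Het difference of response the count was 0 in these settings and 1 without Het APAP 1. Orm3 over Orm1 passed with 10 FPKM added (-1.26), an amount above the highest Orm3 level of any library (6.18 FPKM). That value therefore mostly follows Orm1. Saa2 over Saa1 was 1.39 in perfused and 0.31 in non-perfused livers. With 1 library left out, the log2 ratio differences ran from 0.70 to 1.09 for Saa2 over Saa1, -2.26 to -1.52 for Saa3 over Saa1, -5.24 to -3.50 for Saa4 over Saa1, 1.54 to 2.24 for Orm2 over Orm1 and -1.0 to -0.27 for Orm3 over Orm1. Directions turned only for values that had not passed. Saa4 in Het was -0.31 without the perfusion term, -0.018 with the single libraries pooled into their groups, -0.15 with OE APAP 1 and either OE saline library left out, and -0.15 to 0.29 with 1 library left out. Orm3 in OE was 0.035 with 0.1 FPKM added, 0.031 with quantile normalisation, 0.31 without OE APAP 1 and OE saline 2, and -0.51 to 0.47 with 1 left out, where Saa3 in OE ran from -0.072 to 6.14 and Orm2 in OE from -0.026 to 2.92. The cause was not tested. Over single genes, 549 values kept direction and side of the threshold with 1 library left out, 34 lost and 10 gained the call and 7 turned; for other settings these were 543, 14, 12 and 7. Rescaling moved the median of all genes in the averaged response to 0.11. Lane could not be fitted for the averaged or the WT response. Leaving out pairs of libraries was chosen after seeing the data. No paired analysis was possible because replicate numbers follow the order of deposition and the labels give none.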
